A study of Danio rerio with 9 samples.

Results

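The SLC25 carriers and the uncoupling proteins form the main family of transporters in the inner mitochondrial membrane. Members were taken by symbol, as every zebrafish gene whose symbol starts with slc25a or with ucp and a digit. The RefSeq annotation of assembly GRCz12tu holds 63 such genes. Of these, 50 were represented by 105 named probes on the array, out of 12900 genes named there through a RefSeq accession. The detection filter left 46 members with 93 probes, out of 11326 named genes, and 25 of the 46 had several tested probes. No probe was named for 13 members: slc25a1b, slc25a10a, slc25a13, slc25a17l, slc25a18, slc25a22a, slc25a22b, slc25a23a, slc25a29l, slc25a36b, slc25a38b, slc25a45 and slc25a51b. Another 4 members had probes that were well above background on too few of the 9 arrays to be tested: slc25a6, slc25a24l and slc25a29 on 0 arrays and slc25a32b on 1.

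As background, SLC25 proteins share a fold that lets them bind a substrate on one side of the inner membrane and release it on the other, usually in exchange for a second substrate. In this way ADP and phosphate enter the matrix for ATP synthesis, fatty acids enter as carnitine esters, and amino acids, iron, nucleotides and cofactors reach the enzymes that need them. The uncoupling proteins belong to the same family; mammalian UCP1 lets protons leak back into the matrix and so releases heat in brown fat, while the roles of UCP2 and UCP3 are less settled. Many of these genes are present in zebrafish as duplicates marked a and b, and whether a probe of one copy also binds the other was not tested.

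RNA came from whole zebrafish larvae at 5 days post fertilization, with 3 arrays per group from 3 independent experiments per the labels. Larvae of the tacrine_neomycin group had 50 µM tacrine, an inhibitor of acetylcholinesterase, for 1 h and then 200 µM neomycin for 1 h. Larvae of the neomycin group had 1% DMSO for 1 h and then 200 µM neomycin, an aminoglycoside antibiotic that kills lateral line hair cells, for 1 h, and control larvae had 1% DMSO and then the vehicle over the same times. The labels state no DMSO level for larvae given tacrine and no group had tacrine alone, so tacrine, its solvent and its joint action with neomycin cannot be told apart.

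Signal was read on single-colour Agilent arrays. A level here is the log2 of the background-corrected signal minus the 75th percentile of its array, so that 0 is the brightness of that percentile and a difference of 1 is 2-fold. Probes differ in how strongly they bind, so levels are compared between groups and not between genes. Of the 43603 probes, 65.6% to 73.8% per array stood well above background, and precision is limited by the 3 arrays per group. The raw 75th percentile was 226, 151 and 174 on the tacrine_neomycin arrays, 170, 142 and 163 on the neomycin arrays and 115, 105 and 137 on the control arrays. Each of the 3 slides carried 1 array of every group, and its place on the slide was the same for a group throughout, so place and group cannot be told apart. Markers of skeletal muscle, liver, red cells, exocrine pancreas, photoreceptors, intestine and neurons were well above background on all 9 arrays for every marker tested, as were the 3 hair cell markers of 5 on the array that could be tested. In RNA of whole larvae, fewer cells of a type and less RNA per cell cannot be told apart.

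With tacrine before neomycin, a few members moved by large amounts while most stayed close to the neomycin group. Against neomycin larvae, 6 of the 46 tested members rose (13.0%) and 1 fell (2.17%) at an adjusted p under 0.05 in limma. Among all 11326 named genes, 1.92% rose and 0.848% fell in that comparison. The members were chosen with earlier results of these data known, so these counts are no test of the family. The risers were both copies of the calcium-dependent ATP-Mg/phosphate carrier slc25a25, their relative slc25a23b, both copies of the ornithine carrier slc25a15, and ucp3. Whether a probe of 1 copy also binds the other was not tested, so the copies may not be separate risers. The member that fell was slc25a48. The count of risers includes slc25a23b, which could be tested mainly because of its signal in tacrine_neomycin larvae (3 arrays well above background, against 0 neomycin arrays), so its call is no support for the count. The other 39 members did not pass, 33 of the 46 lay within 0.5 of 0 on the log2 scale (71.7%, against 84.4% of named genes), and the median difference was 0.01, against -0.03 for all named genes. The 3 arrays of the groups did not overlap for 20 members (43.5%), 13 higher and 7 lower in tacrine_neomycin larvae, against 26.8% of named genes.

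Against control larvae, which were set against the same 3 tacrine_neomycin arrays, 5 members rose (10.9%) and 2 fell (4.35%). Of all named genes 3.37% rose and 2.29% fell there. Since the members were chosen with earlier results known, these counts too are no test of the family. Here the risers were slc25a25a, slc25a25b, slc25a15a, slc25a15b and the glycine carrier slc25a38a, and slc25a48 and the coenzyme A carrier slc25a42 fell. Groups did not overlap for 14 members (30.4%), against 29.9% of named genes. The median difference was 0.0, against -0.05 for all named genes. With normexp in place of the scanner's background correction and the same scaling, no member passed in either comparison, and 12 of all probes passed against neomycin and 66 against control (846 and 1875 otherwise). Under that setting slc25a25b and slc25a15b were at -0.06 and -0.16 against control, which is 0.35 and 0.25 above the median of all probes (-0.41).

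Neomycin alone moved no tested member past the threshold. Of the 46, 0 rose and 0 fell in limma against control larvae, and 0.159% of all named genes passed in either direction. Before adjustment 5 members had a limma p under 0.05. The share of all named genes at that unadjusted threshold was not counted, so this number cannot be set against the 0.159%. The members' differences had a median of -0.08, against -0.01 for all named genes, and 42 members (91.3%) lay within 0.5 of 0, against 90.6% of named genes. Under normexp with percentile scaling the members' median was 0.30, with that of all probes at -0.35, so no direction is given for the family. Groups did not overlap for 7 members (15.2%), against 13.5% of named genes. The half-width of the 95% interval of a member's difference had a median of 0.41, before any adjustment for the number of probes.

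**Figure D1:**
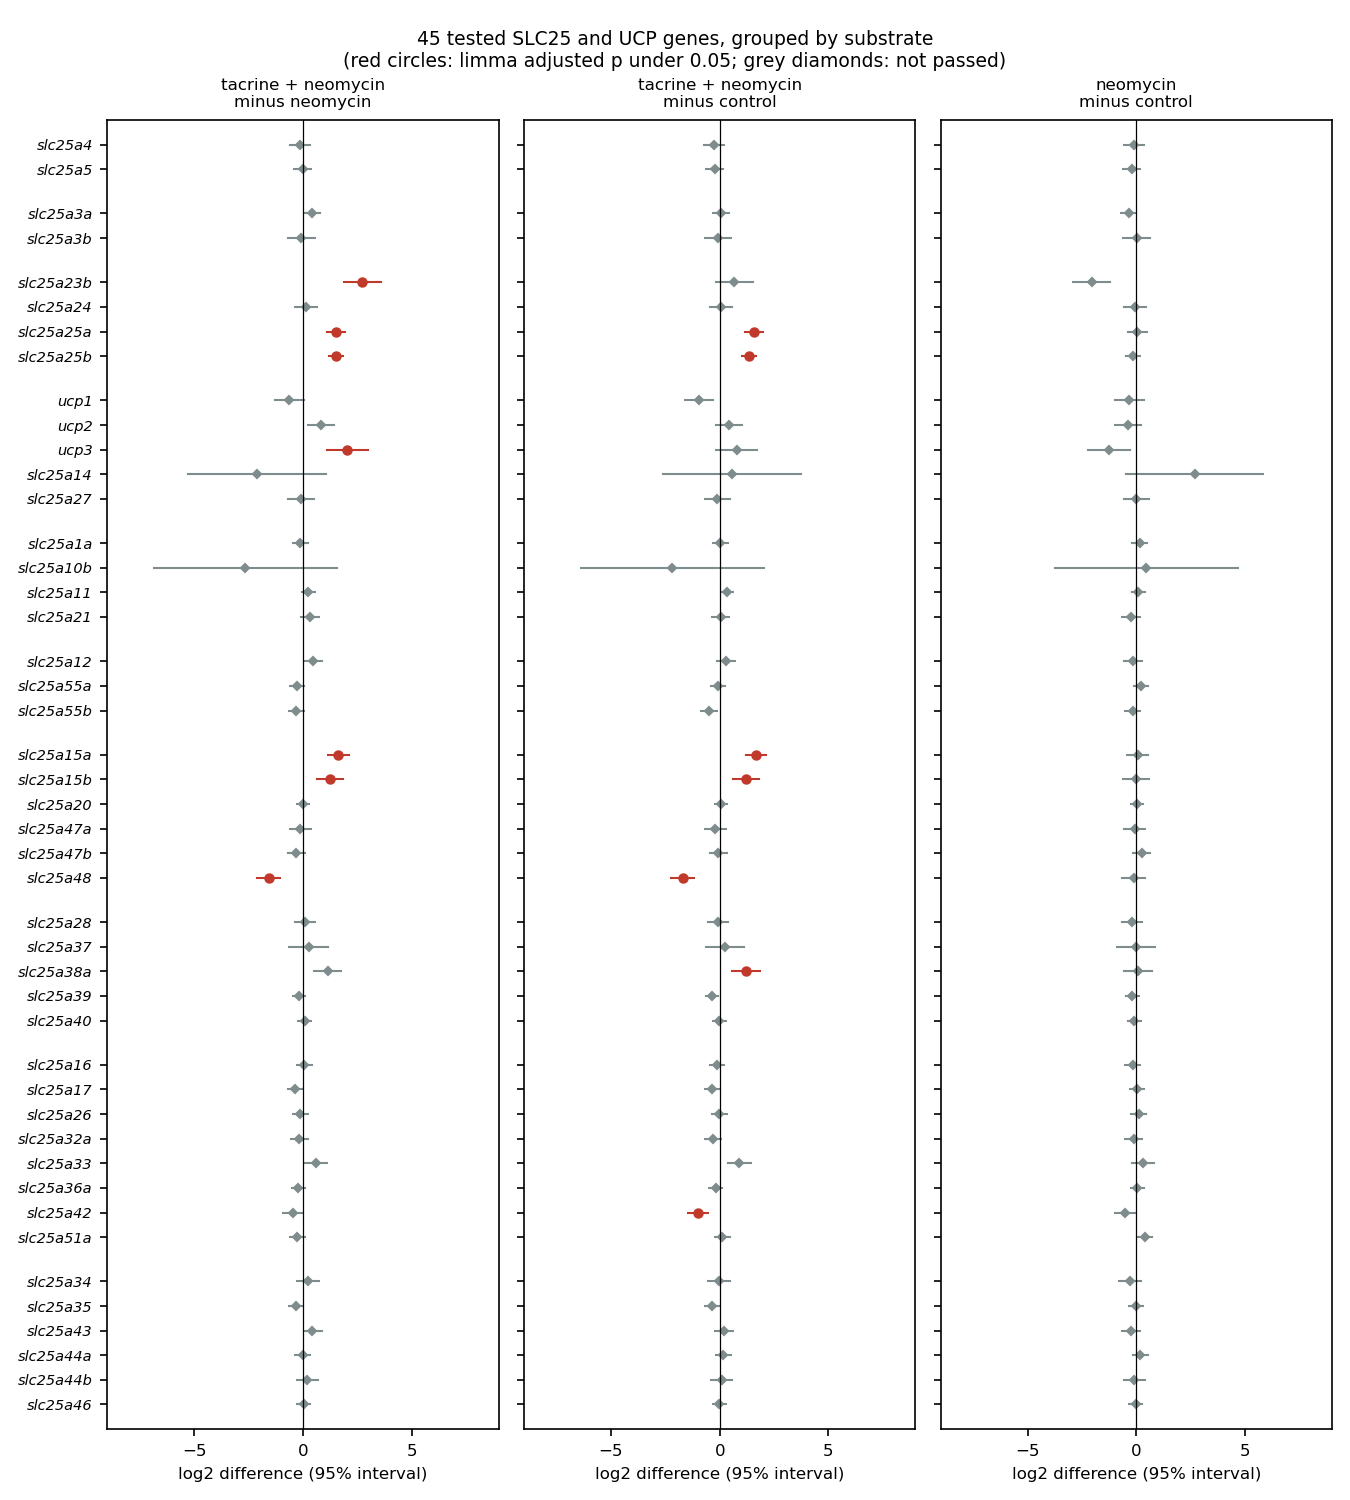
Log2 differences of 45 of the 46 tested SLC25 and UCP genes by their brightest probe, with 95% intervals from limma, grouped by substrate; the panels show tacrine_neomycin minus neomycin, tacrine_neomycin minus control and neomycin minus control, and red circles mark an adjusted p under 0.05. The 7 red circles in each of the first 2 panels lie away from 0, where most members sit. Some grey diamonds also lie away from 0, among them slc25a38a against neomycin (1.13) and slc25a33 against control (0.91). The wide intervals belong to slc25a10b and slc25a14, whose brightest probes spread widely among the arrays of a group.

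The ATP-Mg/phosphate carriers carry calcium-binding domains that face the space between the membranes, and exchange ATP-Mg for phosphate when calcium rises. Of 6 such genes in the annotation 4 were tested: 3 rose in tacrine_neomycin larvae against neomycin larvae, 2 rose against control larvae, and none passed with neomycin alone. One of the 3, slc25a23b, met the detection filter mainly through the group where it was high. Among all named genes 1.92% rose against neomycin and 3.37% against control. The level of slc25a25a was 4.49, 4.42 and 4.50 on the tacrine_neomycin arrays, 3.13, 2.75 and 2.97 on the neomycin arrays and 3.17, 2.50 and 3.01 on the control arrays. All 3 tacrine_neomycin arrays lay above the other 6, with a spread among themselves of 0.04 (SD, n = 3). The difference was 1.52 against neomycin (SE 0.19, 2.87-fold higher, adjusted p = 0.00556) and 1.57 against control (SE 0.19, 2.98-fold higher, adjusted p = 0.00246). Neomycin larvae differed from controls by 0.05, with a 95% interval of -0.37 to 0.48.

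Its duplicate slc25a25b behaved alike on a dim probe, and whether that probe also binds slc25a25a was not tested. It was at -1.39, -1.68 and -1.46 in tacrine_neomycin larvae, -2.86, -3.13 and -3.10 in neomycin larvae and -2.79, -2.91 and -2.89 in control larvae, again without overlap. It rose by 1.52 against neomycin (SE 0.14, 2.86-fold, adjusted p = 0.00176) and by 1.35 against control (SE 0.14, 2.55-fold, adjusted p = 0.00129). With normexp and percentile scaling it was at 0.58 against neomycin and -0.06 against control, and did not pass. With normexp and quantile scaling it passed, at 0.54 (adjusted p = 0.00798) and 0.51 (adjusted p = 0.00543). Its second probe stayed near background on all 9 arrays. Both slc25a25 genes passed in each fit that left out 1 array. In the authors' deposited values slc25a25b differed by 0.69 and 0.73, still past the threshold.

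The third riser of this branch, slc25a23b, was dim throughout. It was at -3.80, -3.93 and -4.44 in tacrine_neomycin larvae, at -6.42, -7.14 and -6.76 in neomycin larvae and at -5.30, -3.81 and -5.06 in controls. It was well above background on 3 tacrine_neomycin arrays, on 0 neomycin arrays and on 1 control array. Against neomycin it was at least 2.46-fold higher, a bound set at the lowest signal well above background on each neomycin array (measured log2 difference 2.72, SE 0.38, adjusted p = 0.00846). With normexp the difference shrank to 0.08 with percentile scaling (adjusted p = 1.0) and to 0.16 with quantile scaling (adjusted p = 0.263). Against control it was 0.67 (adjusted p = 0.335). For neomycin against control the measured difference was -2.05 (adjusted p = 0.112), which passed when arrays were weighted by their quality and under no other setting run. The fourth gene tested, slc25a24, differed by 0.14 against neomycin (adjusted p = 0.803) and 0.06 against control (adjusted p = 0.91).

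**Figure D2:**
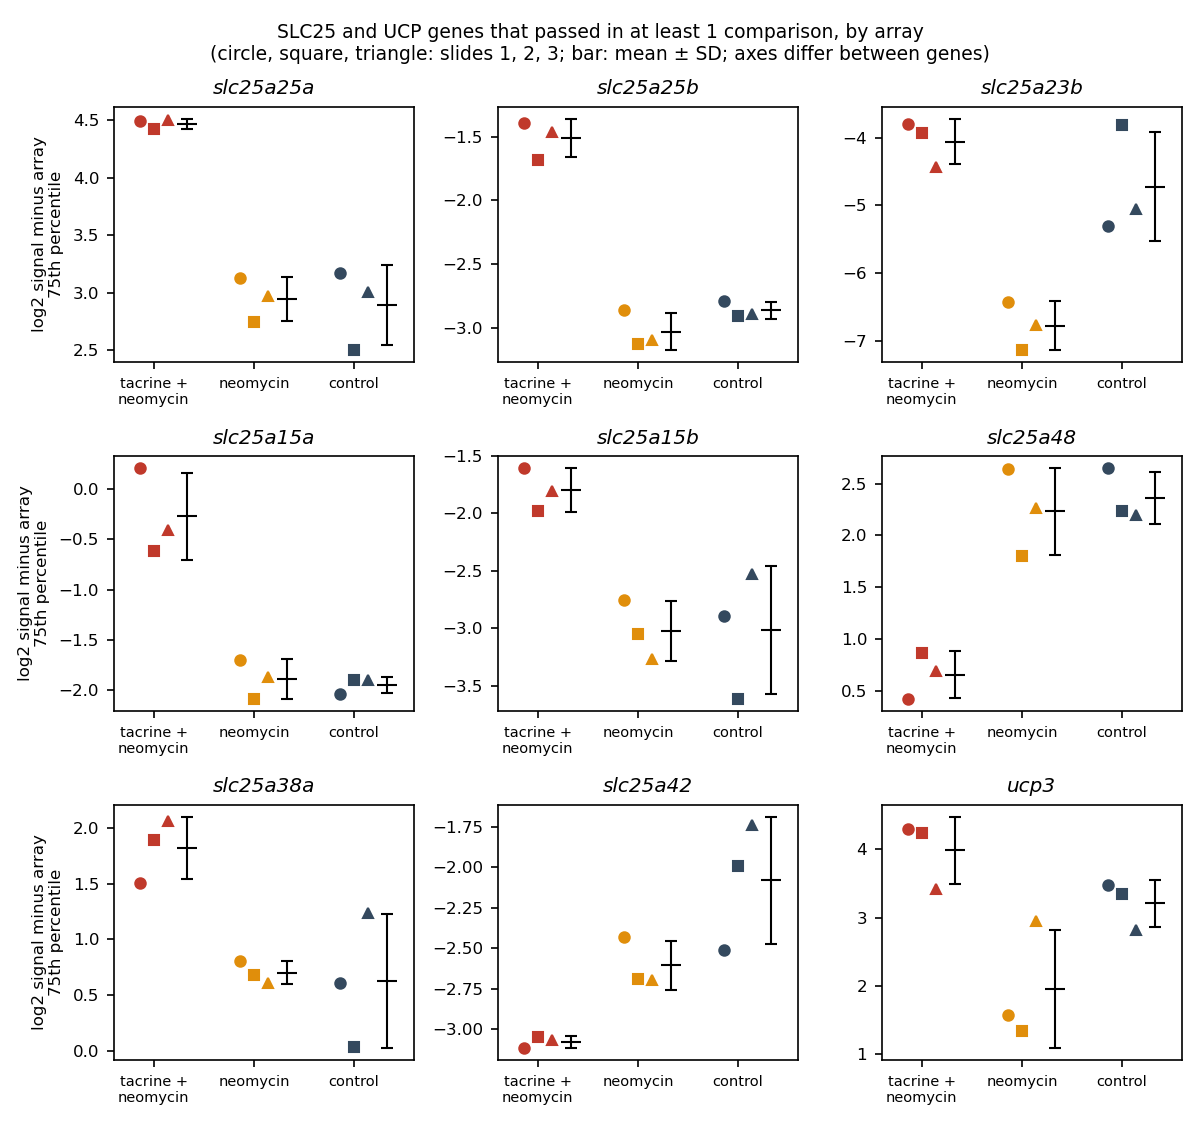
Levels on every array (log2 signal minus the array's 75th percentile) of the 9 members that passed in at least 1 comparison, with tacrine_neomycin, neomycin and control from left to right; circles, squares and triangles are slides 1, 2 and 3, and bars are the mean and SD of 3 arrays. For slc25a25a, slc25a25b, slc25a15a and slc25a48 the tacrine_neomycin arrays stand clear of the other 6, whereas neomycin array 3 of ucp3 lies near the control arrays.

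The branch of ornithine, basic amino acid and carnitine carriers moved in both directions. Of 6 tested genes, 2 rose and 1 fell in tacrine_neomycin larvae against neomycin larvae, and 2 rose and 1 fell against control larvae, comparisons that share the tacrine_neomycin arrays. Among all named genes 1.92% rose and 0.848% fell against neomycin, and 3.37% rose and 2.29% fell against control. In mammals SLC25A15 exchanges cytosolic ornithine for matrix citrulline, a step of the urea cycle. The level of slc25a15a was 0.21, -0.62 and -0.41 in tacrine_neomycin larvae, -1.70, -2.09 and -1.87 in neomycin larvae and -2.04, -1.90 and -1.90 in control larvae. Its rise was 1.61 against neomycin (SE 0.21, 3.06-fold, adjusted p = 0.0072) and 1.67 against control (SE 0.21, 3.18-fold, adjusted p = 0.00324), and both passed in each fit without 1 array. With normexp and percentile scaling the differences were 0.94 and 0.54 and did not pass. With normexp and quantile scaling they passed at 0.82 and 0.88 (adjusted p = 0.0265 and 0.0134), so the size depends on the background correction. The first tacrine_neomycin array was the highest of its group, and the difference within slides was 1.90, 1.47 and 1.46 against neomycin.

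The duplicate slc25a15b had -1.60, -1.98 and -1.80 in tacrine_neomycin larvae, -2.75, -3.05 and -3.27 in neomycin larvae and -2.89, -3.62 and -2.53 in control larvae. No array of tacrine_neomycin overlapped the others, yet the controls spread widely (SD 0.56). It rose by 1.23 against neomycin (SE 0.27, 2.35-fold, adjusted p = 0.0496) and by 1.22 against control (SE 0.27, 2.33-fold, adjusted p = 0.0338). These calls were close to the threshold, and in the authors' deposited values the differences were 0.50 and 0.53. With normexp they were 0.41 and -0.16 with percentile scaling and 0.40 and 0.43 with quantile scaling, and none passed. Against neomycin the adjusted p was 0.052 with the slide as a block, and between 0.0613 and 0.168 without control array 1 or without any single neomycin or tacrine_neomycin array. Against control it lay between 0.051 and 0.109 without control array 1 or 2, neomycin array 2 or any tacrine_neomycin array.

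slc25a48, whose human counterpart has been linked to choline import into mitochondria, fell. Its brightest probe was at 0.42, 0.87 and 0.69 in tacrine_neomycin larvae, 2.64, 1.80 and 2.26 in neomycin larvae and 2.65, 2.24 and 2.20 in control larvae. Every tacrine_neomycin array lay below all others. It fell by 1.57 against neomycin (SE 0.23, 2.98-fold lower, adjusted p = 0.0114) and by 1.70 against control (SE 0.23, 3.26-fold lower, adjusted p = 0.00461). All 3 of its probes passed, with differences of -1.64 to -1.57 against neomycin and -1.73 to -1.67 against control. Slide 2 gave the smallest difference against neomycin, -0.94, beside -2.22 and -1.57 on the others, and without tacrine_neomycin array 1 the brightest probe missed the threshold (-1.46, adjusted p = 0.0536). With normexp and percentile scaling it was at -1.42 against neomycin and -0.83 against control, and did not pass.

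The remaining genes of this branch did not pass. slc25a20, which carries acylcarnitines into the matrix for fatty acid oxidation, was nearly level on all 9 arrays: 3.83, 3.69 and 3.75 in tacrine_neomycin larvae, 3.78, 3.74 and 3.72 in neomycin larvae and 3.63, 3.70 and 3.82 in control larvae. Its difference of tacrine_neomycin from neomycin was 0.01, with a 95% interval of -0.26 to 0.28. slc25a47a and slc25a47b differed by -0.12 and -0.31 against neomycin and by -0.20 and -0.07 against control. Liver markers, of which all 5 tested were detected throughout and none passed, averaged 5.55 to 5.71 in tacrine_neomycin larvae, 5.37 to 5.55 in neomycin larvae and 5.58 to 5.83 in controls. Their part in the slc25a15 and slc25a48 values was not tested.

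All 5 genes of the uncoupling proteins and their nearest relatives were tested, and ucp3 was the member of this group that passed, in tacrine_neomycin against neomycin. In that comparison 1.92% of named genes rose. ucp3 was at 4.30, 4.24 and 3.42 in tacrine_neomycin larvae, 1.57, 1.34 and 2.95 in neomycin larvae and 3.47, 3.34 and 2.81 in control larvae. The first 2 neomycin arrays were low, whereas the third stood among the controls. The difference was 2.04 against neomycin (SE 0.42, 4.10-fold higher, adjusted p = 0.0408), made up of 2.73, 2.90 and 0.48 on the 3 slides. It passed under 4 of 11 other settings that kept all arrays. The setting that takes the probe with the smallest p per gene is among these 4. It repeats the main fit, since ucp3 had 1 tested probe. The difference did not pass with the slide as a block (adjusted p = 0.0793), with arrays weighted by their quality (1.23, adjusted p = 0.0781) or in the authors' deposited values (1.97, adjusted p = 0.062). It passed without neomycin array 3 (adjusted p = 0.0117) and in no other fit that left out 1 array, where the adjusted p was between 0.0505 and 0.144. Against control ucp3 differed by 0.78 in tacrine_neomycin larvae (adjusted p = 0.311) and by -1.26 in neomycin larvae (adjusted p = 0.385; -1.90, -2.00 and 0.14 by slide).

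In the GRCz12tu annotation ucp2 is the neighbour of ucp3 on chromosome 10. Its level was 6.24, 6.30 and 5.41 in tacrine_neomycin larvae, 5.26, 4.83 and 5.37 in neomycin larvae and 5.83, 5.48 and 5.34 in control larvae. As for ucp3, the third slide showed the smallest difference: 0.98, 1.47 and 0.04 against neomycin. The mean difference of 0.83 did not pass (SE 0.26, adjusted p = 0.145), and the 3 probes gave 0.73 to 0.83. Against control the differences were 0.43 in tacrine_neomycin larvae and -0.40 in neomycin larvae.

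Mean values for ucp1 were lower in tacrine_neomycin larvae. Its brightest probe had 4.54, 3.37 and 4.05 in tacrine_neomycin larvae, 4.72, 4.41 and 4.74 in neomycin larvae and 4.68, 5.34 and 4.81 in control larvae. On that probe all tacrine_neomycin arrays lay below every control array, but by very different amounts on the slides: -0.14, -1.96 and -0.75. On each of its other probes tacrine_neomycin and control arrays overlapped, and on slide 1 tacrine_neomycin was the higher. The next brightest probe, for example, had 2.54 in tacrine_neomycin larvae and 2.32 in control larvae there. The brightest probe's mean difference of -0.95 did not pass (SE 0.29, adjusted p = 0.0934), with -0.95 to -0.80 over 5 probes. Neither did -0.64 against neomycin (adjusted p = 0.305) or -0.32 for neomycin against control (adjusted p = 0.851). slc25a27, known in mammals as UCP4, lay between -0.11 and -0.01 in the 3 comparisons.

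**Figure D3:**
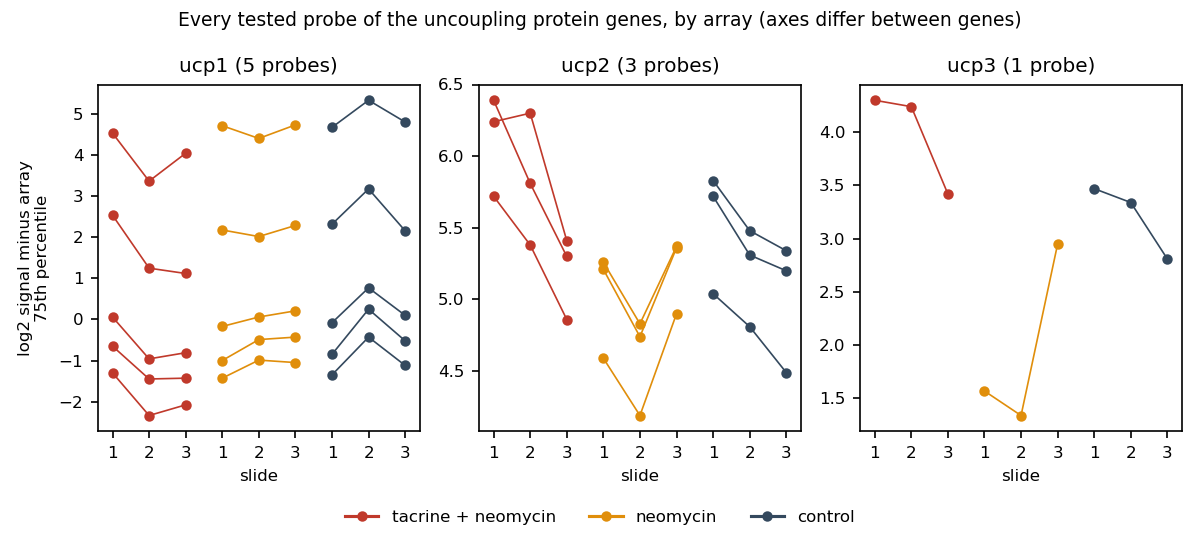
Levels of every tested probe of ucp1 (5 probes), ucp2 (3 probes) and ucp3 (1 probe) on the 3 slides, with tacrine_neomycin in red, neomycin in orange and control in blue; each line joins the 3 arrays of 1 probe and has no order in time. On slide 3 the neomycin value of ucp3 (2.95) approaches that of tacrine_neomycin (3.42).

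Red cell markers were measured beside these genes. All 7 tested red cell markers were well above background on every array, and their mean level was 3.25, 2.88 and 2.90 in tacrine_neomycin larvae, 2.14, 2.54 and 2.40 in neomycin larvae and 2.68, 2.78 and 2.67 in control larvae. Of these markers gata1a, an erythroid transcription factor, rose by 1.12 against neomycin (adjusted p = 0.0445) and by 0.96 against control (adjusted p = 0.049). slc4a1a, the red cell anion exchanger, rose by 0.92 against neomycin (adjusted p = 0.0429). Thus 2 of the 7 passed against neomycin (median 0.77) and 1 of 7 against control (median 0.29), where the embryonic globins hbae1.1 and hbae3 were at -0.34 and -0.41 (adjusted p = 0.223 and 0.184). Among all named genes 1.92% rose against neomycin and 3.37% against control. Markers of other cell types also rose against neomycin. They were 1 of 4 of the intestine, apoa4a (1.59, adjusted p = 0.0448), and 1 of 6 of photoreceptors, pde6c (0.93, adjusted p = 0.0356). The medians of these 2 lists were -0.15 and 0.1. Muscle, where mammalian UCP3 is expressed, had 8 markers with a mean level of 7.05 to 7.32 in tacrine_neomycin larvae, 7.08 to 7.46 in neomycin larvae and 7.39 to 7.76 in controls, and none passed. The part of red cells and muscle in the ucp3 values was not tested.

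The carriers of iron, glycine and glutathione serve heme and iron-sulfur cluster synthesis and the redox balance of the matrix. Of 5 tested genes 1 rose against control and none passed against neomycin. Among all named genes 3.37% rose against control. slc25a38a encodes a glycine importer whose knockdown gives anemia in zebrafish and whose loss causes sideroblastic anemia in people. It was at 1.51, 1.89 and 2.06 in tacrine_neomycin larvae, 0.81, 0.68 and 0.61 in neomycin larvae and 0.61, 0.03 and 1.24 in control larvae. The tacrine_neomycin arrays lay above all others. The rise against control was 1.20 (SE 0.28, 2.30-fold, adjusted p = 0.0411), and its second probe also passed (1.47, SE 0.35, adjusted p = 0.043). Against neomycin the difference was 1.13 (SE 0.28, adjusted p = 0.0756). The controls spread widely (SD 0.61), and the call against control held without control array 3 (adjusted p = 0.0166) and was lost without any other single array (adjusted p = 0.055 to 0.128). It was also lost in the authors' deposited values (adjusted p = 0.0507) and with normexp (0.0792 with percentile and 0.0658 with quantile scaling). The same held without the filter on dim probes (0.0628) and with only the 2 groups compared (0.0852). Of the 7 red cell markers given above, 1 also passed against control, gata1a. There alas2, slc4a1a, epb41b and hbbe2 had 0.86, 0.55, 0.29 and 0.22, and hbae1.1 and hbae3 had -0.34 and -0.41, none of which passed. The part of red cells in the slc25a38a values was not tested.

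The mitoferrins bring iron into the matrix. slc25a37, the mitoferrin of developing red cells, was too dim for a firm value: its brightest probe was at -4.59, -3.24 and -4.69 in tacrine_neomycin larvae, -3.86, -4.92 and -4.49 in neomycin larvae and -4.35, -4.30 and -4.55 in controls, and 2 of its 5 probes could be tested. The groups overlapped on this probe. The other tested probe did not overlap: it was at -4.16, -4.38 and -4.47 in tacrine_neomycin larvae, -4.55, -4.50 and -4.61 in neomycin larvae and -4.71, -4.81 and -4.75 in control larvae, and its differences of 0.21 against neomycin and 0.42 against control did not pass (adjusted p = 0.447 and 0.0951). The brightest probe of the more broadly expressed mitoferrin slc25a28 had -0.23, -0.64 and -0.35 in tacrine_neomycin larvae, -0.47, -0.79 and -0.24 in neomycin larvae and 0.01, -0.40 and -0.51 in control larvae, with overlap. On its other probe tacrine_neomycin larvae (-0.65, -0.60 and -0.74) lay below neomycin larvae (-0.59, -0.46 and -0.59). That difference of -0.12 did not pass (adjusted p = 0.667), nor did -0.07 against control (adjusted p = 0.77). slc25a39 and slc25a40, whose human counterparts import glutathione, differed by -0.37 and -0.02 against control (adjusted p = 0.119 and 0.955).

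Among 9 tested carriers of cofactors and nucleotides, 1 fell against control and none passed in the other comparisons. Of all named genes 2.29% fell against control. In humans SLC25A42 exchanges coenzyme A for adenine nucleotides. Its level was -3.12, -3.05 and -3.07 in tacrine_neomycin larvae, -2.43, -2.69 and -2.70 in neomycin larvae and -2.51, -1.99 and -1.74 in control larvae. It was lowest on every tacrine_neomycin array and fell by 1.00 against control (SE 0.20, 2.0-fold lower, adjusted p = 0.0226). Neither the difference of -0.48 against neomycin (adjusted p = 0.252) nor that of -0.52 for neomycin against control (adjusted p = 0.449) passed. The call was lost without control array 2 or 3 or any tacrine_neomycin array (adjusted p = 0.0628 to 0.0726). It was also lost, with a smaller difference, in the authors' deposited values (-0.38, adjusted p = 0.05) and with normexp and quantile scaling (-0.26, adjusted p = 0.0804), and with only the 2 groups compared in the fit (adjusted p = 0.0502). Other cell types' markers also fell against control: 2 of 4 of the exocrine pancreas, ela2l (-0.83, adjusted p = 0.0171) and prss1 (-0.63, adjusted p = 0.0395), and 1 of 3 of hair cells, pvalb8 (-0.82, adjusted p = 0.0364). The hair cell markers s100t and atoh1a were at -0.87 and 0.18 and did not pass (adjusted p = 0.183 and 0.56). The medians of the pancreas and hair cell lists were -0.62 and -0.82. The pancreas markers averaged 5.24 to 5.45 in tacrine_neomycin larvae, 5.41 to 5.79 in neomycin larvae and 5.83 to 6.0 in control larvae. The hair cell markers averaged 0.81 to 1.13 in tacrine_neomycin larvae, 0.79 to 0.91 in neomycin larvae and 1.01 to 1.81 in control larvae, and the part of both cell types in the falls of slc25a42 and slc25a48 was not tested.

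slc25a33 carries pyrimidine nucleotides into mitochondria. It had 2.67, 2.52 and 2.43 in tacrine_neomycin larvae, 2.04, 1.55 and 2.23 in neomycin larvae and 2.07, 1.43 and 1.40 in control larvae. The tacrine_neomycin arrays did not overlap the others, but the difference of 0.91 against control just missed the threshold (SE 0.23, adjusted p = 0.0535). It passed with the slide as a block (adjusted p = 0.0439). Its second probe differed by 0.20. The other pyrimidine carrier on the array, slc25a36a, had 1.75, 1.88 and 1.53 in tacrine_neomycin larvae, 1.93, 2.00 and 1.91 in neomycin larvae and 1.84, 1.92 and 1.97 in controls, with no difference past the threshold. slc25a51a, whose human counterpart imports NAD, was at -1.86, -1.77 and -1.84 in tacrine_neomycin larvae, -1.38, -1.57 and -1.72 in neomycin larvae and -1.87, -2.18 and -1.79 in controls. Its difference for neomycin against control was 0.39 (adjusted p = 0.468). The carriers slc25a16, slc25a17, slc25a26 (S-adenosylmethionine) and slc25a32a (folate and FAD) lay between -0.38 and 0.10 in all 3 comparisons.

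The carriers that feed ATP synthesis directly did not pass in any comparison. slc25a4 and slc25a5 are ADP/ATP translocases, which hand ATP to the cytosol in exchange for ADP. slc25a5 was at 8.04, 7.88 and 8.28 in tacrine_neomycin larvae, 8.21, 7.88 and 8.14 in neomycin larvae and 8.51, 8.10 and 8.26 in control larvae. Its 10 probes gave differences between -0.18 and 0.36 against neomycin and between -0.40 and 0.06 against control, and none passed. slc25a4 had 6.32, 6.36 and 6.50 in tacrine_neomycin larvae, 6.74, 6.24 and 6.60 in neomycin larvae and 7.05, 6.38 and 6.54 in controls. The 3 groups overlapped for slc25a4 and on the brightest probe of slc25a5. On some dimmer probes of slc25a5 groups stood apart. On A_15_P738483 neomycin larvae (6.99, 6.65 and 6.93) lay below control larvae (7.31, 7.13 and 7.23) and below tacrine_neomycin larvae. Neither -0.37 for neomycin against control (adjusted p = 0.47) nor 0.36 for tacrine_neomycin against neomycin (adjusted p = 0.236) passed. On A_15_P696046 tacrine_neomycin larvae lay below control larvae, at -0.40 (adjusted p = 0.195).

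The phosphate carrier brings in the phosphate for ATP synthesis. slc25a3b had 6.29, 6.14 and 6.81 in tacrine_neomycin larvae, 6.65, 6.46 and 6.38 in neomycin larvae and 6.89, 5.89 and 6.69 in control larvae, with overlap throughout. slc25a3a was at 2.88, 2.47 and 2.51 in tacrine_neomycin larvae, 2.13, 2.08 and 2.38 in neomycin larvae and 2.45, 2.59 and 2.62 in control larvae. The neomycin arrays of slc25a3a lay below all others, but neither 0.42 for tacrine_neomycin against neomycin (adjusted p = 0.21) nor -0.36 for neomycin against control (adjusted p = 0.552) passed.

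Carriers that link the Krebs cycle and the malate-aspartate shuttle to the cytosol were also without a call. slc25a12, the aspartate/glutamate carrier of that shuttle, was at 3.29, 3.51 and 3.31 in tacrine_neomycin larvae, 2.60, 3.07 and 3.08 in neomycin larvae and 2.86, 3.30 and 3.10 in controls, a difference of 0.45 against neomycin (SE 0.18, adjusted p = 0.239). slc25a55a and slc25a55b differed by -0.10 and -0.48 against control (adjusted p = 0.753 and 0.112). The 4 probes of slc25a55a gave -0.64 to -0.30 against neomycin (lowest adjusted p = 0.087) and -0.56 to -0.10 against control (lowest adjusted p = 0.0701), and none passed. The citrate carrier slc25a1a, the oxoglutarate carrier slc25a11 and the oxodicarboxylate carrier slc25a21 differed from neomycin by -0.13, 0.24 and 0.30. By their brightest probes the 6 other members ranged from -0.34 to 0.43 against neomycin and from -0.37 to 0.20 against control. Among them were slc25a46, an outer membrane protein of mitochondrial fission and fusion, and slc25a44a and slc25a44b, whose mammalian counterpart carries branched-chain amino acids. The probes of slc25a34, also among them, disagreed against neomycin: 0.23 on the brightest, and -0.31 and -0.27 on the others. None of these passed (lowest adjusted p = 0.262).

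For 2 members, picked out after their values were seen, the arrays of the brightest probe spread widely within a group. The brightest probe of the dicarboxylate carrier slc25a10b was at -7.55, 0.40 and 0.59 in tacrine_neomycin larvae, 0.42, 0.67 and 0.29 in neomycin larvae and 1.27, -1.61 and 0.34 in controls. Its difference against neomycin was -2.65 (SE 1.87, adjusted p = 0.518) and became 0.04 without tacrine_neomycin array 1. Against control it was -2.18 (adjusted p = 0.542). The other tested probe of slc25a10b was dim and went the other way, at 0.33 against neomycin (adjusted p = 0.578) and 0.94 against control (adjusted p = 0.0697). slc25a14, known in mammals as UCP5, had -6.40, -0.69 and -0.35 in tacrine_neomycin larvae, -0.34, -0.30 and -0.45 in neomycin larvae and -3.97, -1.51 and -3.64 in control larvae. Against neomycin it differed by -2.11 (SE 1.40, adjusted p = 0.49), and by -0.15 without tacrine_neomycin array 1. Against control it differed by 0.56, or by 2.52 without that array (adjusted p = 0.0825). For neomycin against control the difference was 2.68 (SE 1.40, adjusted p = 0.649), whereas its other 2 probes gave -0.56 and 0.31, so the probes of this gene disagree.

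For each of the 14 calls the 2 groups compared did not overlap. Differences taken within slides therefore had to run the same way on all 3 slides, and this is no support for the calls. Only the sizes are of interest here. Against neomycin they were 1.36, 1.67 and 1.53 for slc25a25a and 1.46, 1.45 and 1.64 for slc25a25b. The values for slc25a23b were 2.62, 3.21 and 2.32, and those for slc25a15b 1.15, 1.07 and 1.48. Against control the slides gave 1.32, 1.92 and 1.48 for slc25a25a, 1.39, 1.22 and 1.44 for slc25a25b and 2.25, 1.28 and 1.49 for slc25a15a. slc25a15b gave 1.29, 1.64 and 0.73, slc25a38a 0.91, 1.87 and 0.82, slc25a42 -0.61, -1.06 and -1.32, and slc25a48 -2.23, -1.37 and -1.51. Over all 46 members the slide medians were -0.05, 0.16 and 0.05 against neomycin and -0.04, 0.0 and 0.05 against control.

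**Figure D4:**
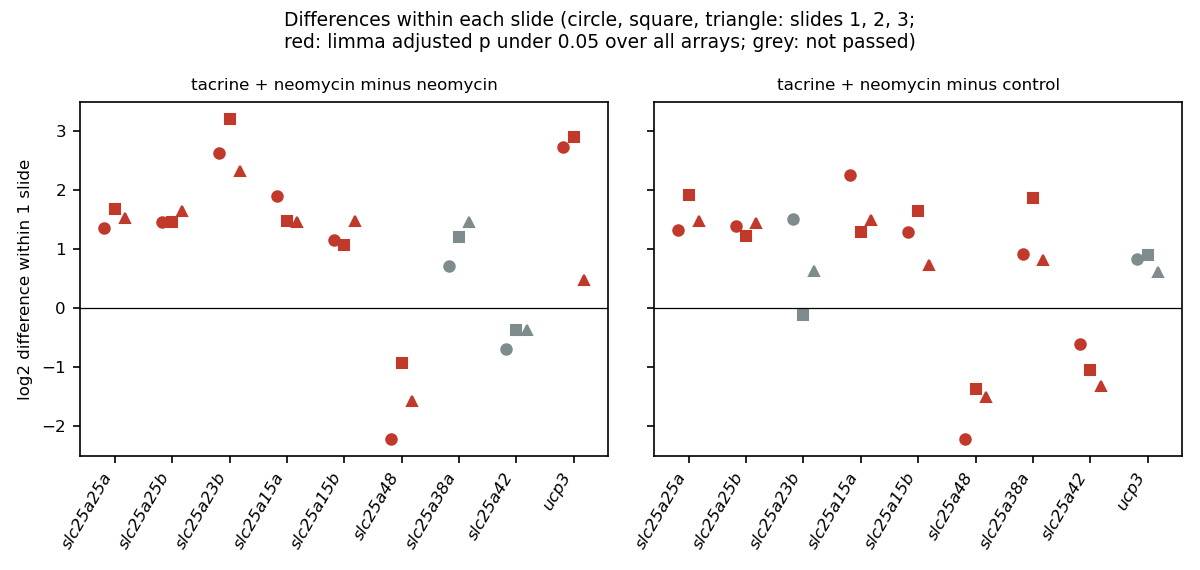
Log2 differences within each slide for the 9 members that passed in at least 1 comparison, tacrine_neomycin minus neomycin on the left and tacrine_neomycin minus control on the right; circles, squares and triangles are slides 1, 2 and 3, and red marks the comparisons that passed over all arrays. slc25a25b is the tightest (1.45 to 1.64 against neomycin), and ucp3 is split between slides 1 and 2 (2.73 and 2.90) and slide 3 (0.48).

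Genes that work beside the carriers mostly did not pass, and neither did most named genes. Of all named genes 1.92% rose and 0.848% fell against neomycin, and 3.37% rose and 2.29% fell against control. With neomycin alone 0.159% passed. At such shares short lists hold few calls or none, so the counts below are not read as a result about these lists. With tacrine before neomycin, 1 of 4 tested genes of the mitochondrial calcium uniporter list fell against neomycin: micu2, which gates calcium entry, averaged 2.19 in tacrine_neomycin larvae and 3.40 in neomycin larvae (difference -1.21, SE 0.25, adjusted p = 0.0444). In control larvae micu2 averaged 2.32, and it differed from control by -0.13 in tacrine_neomycin larvae (adjusted p = 0.811) and by 1.07 in neomycin larvae (adjusted p = 0.217). Of 6 sideroflexins and mitochondrial ABC transporters, sfxn1, a serine carrier in humans, rose against neomycin (0.72, SE 0.14, adjusted p = 0.0309), with 0.32 against control (adjusted p = 0.211). Of 19 tested subunits of the protein import machinery, through which the carriers reach the inner membrane, timm17a rose against control (0.57, SE 0.13, adjusted p = 0.0361), with 0.47 against neomycin (adjusted p = 0.0958). No gene passed in any comparison among 16 of the carnitine shuttle and fatty acid oxidation, 18 of heme and iron-sulfur cluster synthesis, 10 of the urea cycle and glutamate metabolism, 10 regulators of mitochondrial content, or 6 outer membrane channels and pyruvate carriers. Their median differences against neomycin were -0.07, -0.05, 0.04, 0.03 and -0.09, in that order.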

How the data were processed

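Each array's deposited scanner table gives linear intensity. Per the file headers, Feature Extraction 10.1.1.1 (8.0 in the submitters' processing notes) corrected it for background. Other deposited columns are 0 or 1 flags for detection above background, saturation and outlier spots. A deposited matrix of log2 values for 25265 probes, made by a method not given in the sources used here, served as an alternative only.

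Here, outlier spots (3 to 9 per array) were left out, spots of a probe were averaged as log2, and the array's 75th percentile over non-control probes was subtracted. No spot was saturated. The 31672 probes well above background on at least 3 of 9 arrays entered a single two-sided limma fit (version 3.58.1, R 4.3.3) of the 3 groups, using lmFit, then eBayes with no trend. It had 6 residual and 3.12 prior degrees of freedom. Adjusted p is Benjamini-Hochberg over these probes, and a probe passed under 0.05. The fit was tested on simulated data. RefSeq accessions in the files were matched to GRCz12tu symbols: 25173 of 43603 probes have 1 symbol. The array design follows an older build, so no positions are given.

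A gene is counted by its brightest tested probe. Named with every array are members with a called probe, the 5 smallest p per comparison, and a fixed set of members from each substrate group; other members appear by value or range, except 1 that is counted but not reported here. Substrate groups, partner lists and markers, like the members, were chosen with earlier results of these data known. Alternatives were normexp (offset 50) with percentile or quantile scaling, quantile scaling alone, the authors' values, 2 other detection filters and the slide as a block. Others were array weights, an intensity trend, only the 2 groups compared, the probe with the smallest p per gene, and each array left out in turn. Choosing a probe by its p favours a call, and for a gene with 1 tested probe it repeats the main fit.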

Additional observations from a re-analysis of the deposited data

How the results depend on the processing

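Of 46 tested members, 0 passed for neomycin against control under every setting run except array weights, where 1 passed (slc25a23b, lower). Against neomycin, tacrine_neomycin had 7 calls, 0 with normexp and percentile scaling, 4 with normexp and quantile scaling, and 5 to 8 under the other settings that kept all arrays. Against control it had 7 calls, 0 with normexp and percentile scaling, 4 with normexp and quantile scaling, 4 with only the 2 groups compared in the fit, and 5 to 8 under the others. Normexp with percentile scaling also left few calls among all probes (0, 12 and 66, in the order of these comparisons) and turned slc25a15b to -0.16 and slc25a25b to -0.06 against control. The cause was not tested. Leaving out each array in turn gave 0 calls for neomycin against control, 4 to 7 against neomycin (4 without tacrine_neomycin array 1) and 4 to 6 against control (4 without control array 2 or any tacrine_neomycin array); 8 of the 14 calls held in all 9 fits. Replicate numbers coincide with slides. Deviations of same-numbered arrays from their group means correlated at -0.0834 to 0.261, and those of arrays with different numbers at -0.296 to 0.127. Most same-numbered values were thus the higher ones, and an effect shared within a slide is not excluded. The labels state no pairing, so the main fit has no block and the block was run as an alternative. With the replicate block (the slide), 0, 5 and 8 members passed in the order above: slc25a15b and ucp3 were lost against neomycin and slc25a33 was gained against control. Dim probes near background, above all slc25a23b and slc25a37, limit what could be measured.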
